A study of Mus musculus with 61 samples.

Results

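A set of 10 genes that macrophages express strongly was followed through whole mouse muscle after exercise and after removal of regulatory T cells. The 10 genes, Cd68, C1qa, C1qb, C1qc, Lyz2, Ctss, Fcer1g, Csf1r, Adgre1 and Mrc1, were taken by symbol from a gene count table with 55011 rows, and all 10 were found. Expression was measured by RNA sequencing of bulk muscle in 61 libraries that form 22 groups. In bulk muscle, fewer cells of a type and less RNA per cell cannot be told apart, so every level below is that of the tissue.

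Macrophages are phagocytes that live in muscle and also arrive from blood monocytes when fibres are damaged. Their survival depends on Csf1r, the receptor for the cytokines Csf1 and Il34. They are the main source of C1q, the recognition protein of the classical complement pathway, which is assembled from the chains encoded by C1qa, C1qb and C1qc. In textbook accounts of muscle repair, early inflammatory macrophages clear debris and later ones accompany regrowth of fibres, and regulatory T cells restrain the inflammatory phase.

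The acute experiment used quadriceps of Foxp3DTR+ mice, in which the Foxp3 locus also encodes GFP and the human diphtheria toxin receptor, so that toxin removes Foxp3-expressing regulatory T cells. Its DTR+ groups held 2 libraries of sedentary mice, 3 at day 1 after exercise and 2 at day 7, and the Foxp3DTR- groups held 3, 3 and 2. The training experiment, also in quadriceps, had trained DTR+, sedentary DTR+, trained DTR- and sedentary DTR- groups of 3 libraries, with 2 weeks of training. Diphtheria toxin was given to both genotypes in both experiments, the controls included. Trained DTR+ mice given toxin also received neutralising anti-IFN-gamma antibody or IgG for 1 week, 3 libraries each, in quadriceps. Sedentary C57BL/6JN mice of 24 months received the same antibody or IgG, 2 libraries each, and their labels name no particular muscle. Wild-type C57BL/6J mice were sampled while sedentary and at day 1, day 2 and day 7 after a bout of exercise, with 3 quadriceps and 3 tibialis anterior libraries each time. The labels give no age for the other mice. They number the libraries of a group without stating for the DTR mice that each is a separate animal, so p-values measure the spread between these libraries.

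The 3 C1q genes lie side by side on mouse chromosome 4 (GRCm38, GENCODE vM21), all on the minus strand. C1qa spans chr4:136895917-136898803, C1qc spans chr4:136889804-136893065 and C1qb spans chr4:136880129-136886187. The gap between C1qa and C1qc is 2851 bases, and that between C1qc and C1qb is 3616 bases. Cd68 lies at chr11:69664213-69666153 on the minus strand, Lyz2 at chr10:117277331-117282321 on the minus strand, and Ctss at chr3:95526786-95556403 on the plus strand. Fcer1g lies at chr1:171229572-171234365 on the minus strand, Adgre1 at chr17:57358691-57483527 and Mrc1 at chr2:14229392-14332057, both on the plus strand. Csf1r overlaps Hmgxb3 on the other strand, and counts of such a pair cannot be separated where strand was not used in counting. Csf1r also overlaps Mir6983, Ctss overlaps the pseudogene Hmgb1-ps5 and Mrc1 holds Mir511. These 3 lie on the same strand as the gene they overlap, so strand would not separate their counts. Lyz2 has a close copy, Lyz1, which held 2345 counts over all libraries against 49131 for Lyz2.

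RefSeq promoters (GRCm38.p6, 250 bases before to 50 bases after the gene's start) were at hand for 7 of the 10 genes, and C1qa, Csf1r and Adgre1 had no entry. The promoters of C1qb and C1qc are shown because these neighbouring genes encode chains of 1 protein. C1qc fell with training in DTR+ muscle, where C1qb did not pass the test. That of Ctss is shown because Ctss was higher in DTR+ than in DTR- muscle at day 7 after exercise and after training. Ctss did not pass the test between genotypes at rest, in either experiment, or at day 1. Capitals mark matches to AGGAAGT, the core recognised by the macrophage factor PU.1, which appears as ACTTCCT when read on the printed strand. In the Ctss promoter they also mark a match to the interferon-stimulated response element (ISRE) motif. The promoters are chr4:136886151-136886450 (minus strand) for C1qb, chr4:136892865-136893164 (minus strand) for C1qc and chr3:95526536-95526835 (plus strand) for Ctss.
C1qb: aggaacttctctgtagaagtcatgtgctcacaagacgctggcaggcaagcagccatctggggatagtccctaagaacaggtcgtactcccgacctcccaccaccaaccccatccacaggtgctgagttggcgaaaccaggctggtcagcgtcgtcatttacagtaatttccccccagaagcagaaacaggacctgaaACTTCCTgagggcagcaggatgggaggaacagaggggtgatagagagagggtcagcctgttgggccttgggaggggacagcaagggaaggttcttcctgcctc
C1qc: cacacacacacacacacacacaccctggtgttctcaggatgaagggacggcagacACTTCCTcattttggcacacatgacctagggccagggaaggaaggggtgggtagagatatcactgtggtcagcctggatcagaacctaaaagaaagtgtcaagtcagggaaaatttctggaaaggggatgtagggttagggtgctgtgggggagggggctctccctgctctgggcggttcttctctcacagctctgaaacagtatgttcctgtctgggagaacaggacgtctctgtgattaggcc
Ctss: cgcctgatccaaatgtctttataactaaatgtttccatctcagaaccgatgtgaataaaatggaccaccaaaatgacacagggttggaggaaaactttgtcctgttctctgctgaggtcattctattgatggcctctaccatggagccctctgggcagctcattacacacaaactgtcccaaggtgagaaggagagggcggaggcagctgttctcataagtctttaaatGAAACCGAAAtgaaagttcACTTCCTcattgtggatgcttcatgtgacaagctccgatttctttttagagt

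AGGAAGT was present on either strand in 5 of the 7 promoters, in C1qb, C1qc, Lyz2, Ctss and Mrc1, against 9.351% of 32851 mouse promoters of the same length. It began at position -53 from the start in C1qb, -195 in C1qc, -100 in Lyz2, -2 in Ctss and -211 in Mrc1. The ISRE motif was present in Ctss alone among the 7, at -21, against 3.443% of all promoters. TTCNNNGAA, the interferon-gamma activated sequence, was found in 0 of the 7, against 8.298% of all promoters. The 3 patterns were searched on both strands, and no match overlapped another. A match is a description of letters, not of a bound site.

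Libraries held 3359683 to 14445336 counts, and levels are given as CPM, the counts of a gene scaled to a common library total. A count of 0 would allow a level of up to 0.208 to 0.893 CPM in a library, for counting error only, but all 10 genes were counted in every library. Fibre genes (Acta1, Ckm, Ttn, Myh4, Myh1, Mb and Tnnt3) summed to 155678 to 204839 CPM, so each library carried the markers of its labelled tissue. Foxp3 was at 0 in 41 of 61 libraries and reached 9 counts in the highest, too few to check the genotype of a single library. The 4 libraries of sedentary and day 7 DTR+ mice in the acute experiment stood apart. Mitochondrial transcripts took 21.4 to 23.5% of counts in sedentary DTR+ and 20.01 to 21.8% in day 7 DTR+ libraries, against 7.9 to 12% in sedentary DTR- and 8.70 to 8.92% in day 7 DTR- libraries. Genes detected numbered 14701 to 14745 in sedentary DTR+ and 15300 to 15306 in day 7 DTR+ libraries, against 16508 to 16799 in sedentary DTR- and 16843 to 18494 in day 7 DTR- libraries. Day 1 libraries of both genotypes were at 5.44 to 6.56% mitochondrial counts. They had more genes detected than any acute library at rest or day 7, with 23450 to 26524 in DTR+ and 21211 to 26596 in DTR- muscle. Genotype and these library properties cannot be told apart at rest and at day 7. Nor can day 1 and library properties be told apart where day 1 is compared with rest, in either genotype.

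Corrected for exon length, Lyz2, the secreted lysozyme of myeloid cells, was the most abundant, with a median over the 61 libraries of 65.3 CPM per kb. C1qb followed at 26.2, C1qa at 16.6, Fcer1g at 11.99, Ctss at 9.52 and Cd68 at 8.35 CPM per kb. C1qc stood at 5.25, Csf1r at 4.91, Mrc1 at 2.56 and Adgre1 at 2.05 CPM per kb. The summed level of the 10 genes ran over 71.4 to 703 CPM, lowest in a tibialis anterior library and highest in a day 7 DTR+ library.

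**Figure D1:**
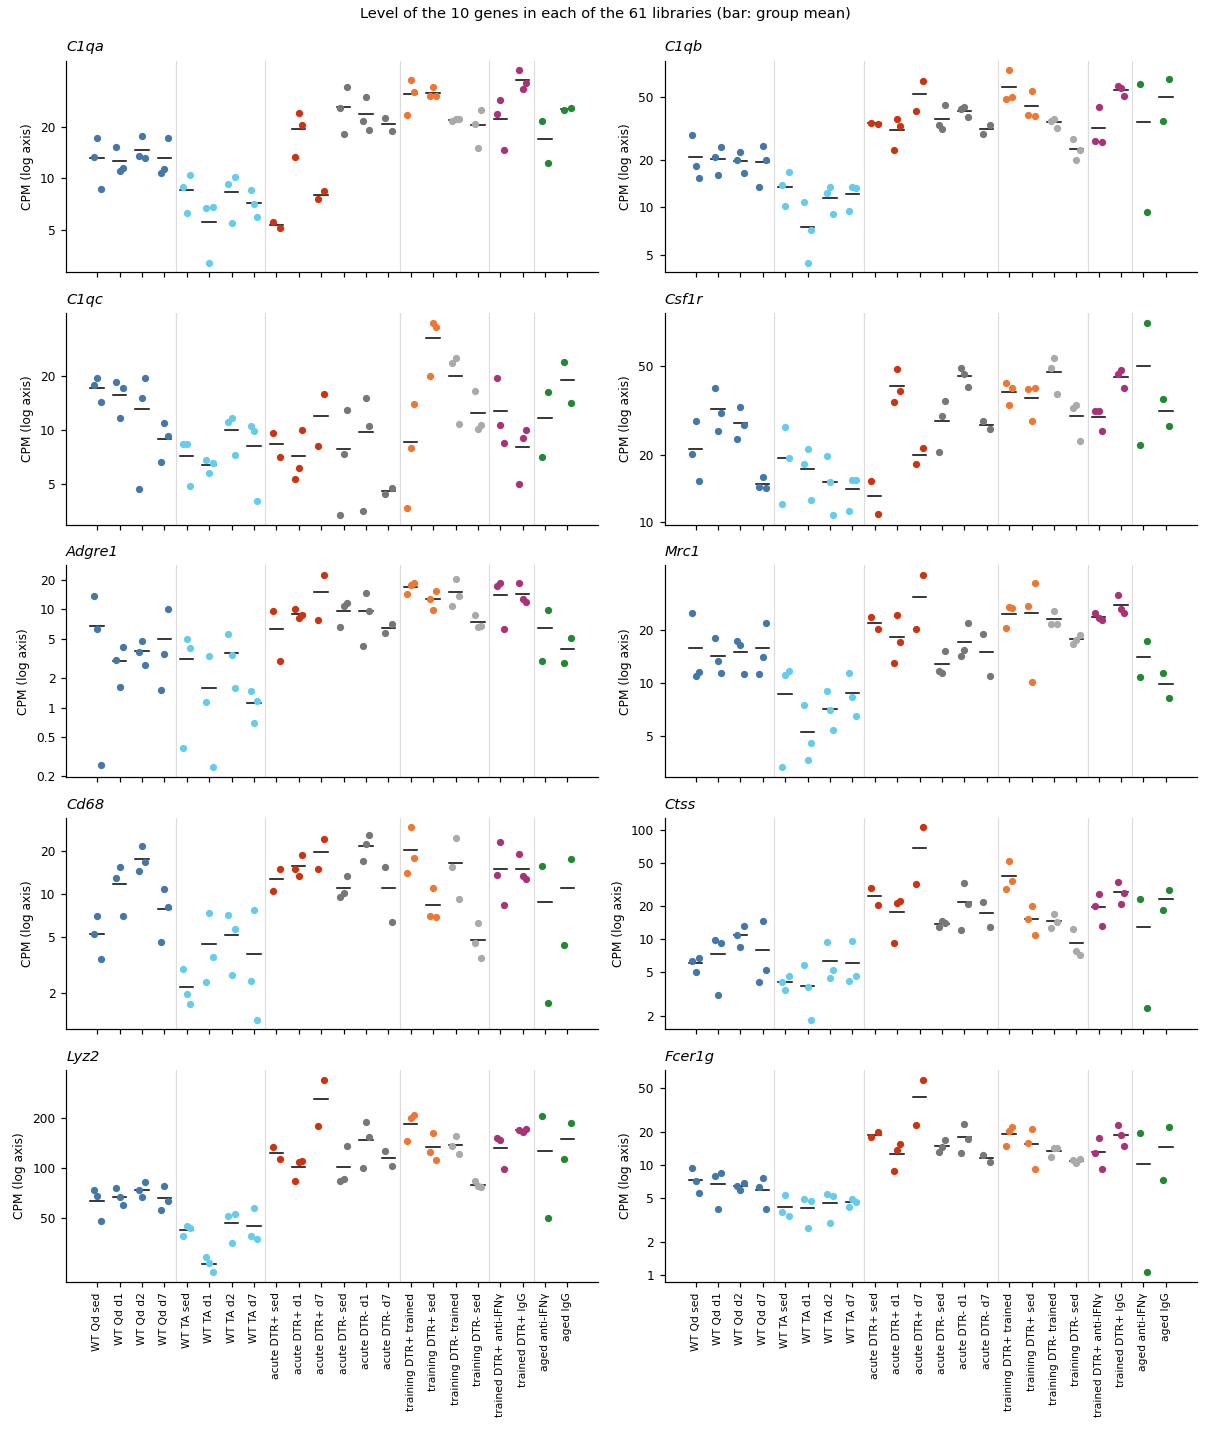
Level of each of the 10 genes in CPM on a log axis, with 1 point per library and a bar at each group mean, for all 22 groups. Tibialis anterior groups sit lowest for most genes, and the day 7 DTR+ group is highest for Lyz2, Ctss, Fcer1g and Mrc1.

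In order of group means, the lowest place belonged to a tibialis anterior group for 7 of the 10 genes (Cd68, C1qb, Lyz2, Ctss, Fcer1g, Adgre1 and Mrc1). The DTR+ group at day 7 was first for Lyz2 (261 ± 116 CPM, SD, n = 2), Ctss (68.8 ± 51.7), Fcer1g (41.1 ± 25.4) and Mrc1 (30.5 ± 14.4). Trained DTR+ muscle was first for C1qb (57.3 ± 13.9 CPM, n = 3) and Adgre1 (17.0 ± 2.23), and trained DTR+ muscle with IgG for C1qa (37.4 ± 4.95). Sedentary DTR+ muscle of the training experiment was first for C1qc (32.2 ± 10.7 CPM), and aged muscle with anti-IFN-gamma for Csf1r (50.4 ± 39.9, n = 2). Cd68 was highest at day 1 in DTR- muscle (21.8 ± 4.43 CPM, n = 3). The first step was wide for some genes, with the group in second place at 19.0 CPM for Fcer1g, 38.1 CPM for Ctss and 19.8 CPM for C1qc. Of 21 neighbouring pairs per gene, the libraries did not overlap in 2 for Lyz2, in 1 each for C1qa, C1qc, Ctss and Fcer1g, and in 0 for the others. For Fcer1g that pair was the first step. For Lyz2, C1qa, C1qc and Ctss such pairs lay further down, so the first steps of Ctss and C1qc overlapped. No such count was taken over all genes. Experiments were separate sets of libraries, so levels across them are a description.

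After exercise in wild-type mice, Cd68 was the gene that moved. Cd68 encodes macrosialin, a glycoprotein of macrophage endosomes and lysosomes. In quadriceps at day 2 it stood at 14.4, 21.6 and 16.7 CPM, against 5.18, 6.96 and 3.5 CPM in sedentary mice, and the groups did not overlap. It rose by a log2 fold change of 1.77 ± 0.36 (SE; edgeR quasi-likelihood test with Benjamini-Hochberg adjustment over all genes, adjusted p = 0.0419). It was the 1 member called, where 0.299% of 13062 genes were called. The call did not survive leaving out any 1 of the 6 libraries. At day 1 Cd68 had 12.9, 15.6 and 6.96 CPM in quadriceps (log2 1.20 ± 0.36, adjusted p = 0.205), and at day 7 it had 4.58, 10.9 and 8.06 CPM (log2 0.61 ± 0.36, adjusted p = 0.747). At these times 0 members were called, against 0.582% of genes at day 1 and 0.214% at day 7. Between day 2 and day 1, where 0.107% of genes were called, and between day 7 and day 2, where 0.0995% were, 0 members were called.

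None of the C1q genes, nor Lyz2, passed the test in quadriceps at any of these times. C1qb, the B chain of C1q, had a log2 fold change of -0.01 ± 0.26 at day 1, -0.06 ± 0.26 at day 2 and -0.09 ± 0.26 at day 7, against sedentary mice. C1qc was at 6.61, 10.9 and 9.24 CPM at day 7, below all sedentary libraries at 17.8, 19.4 and 14.3 CPM, but did not pass the test (log2 -0.92 ± 0.37, adjusted p = 0.527). Csf1r (chr18:61100598-61132149, plus strand) was at 20.3, 28.6 and 15.3 CPM at rest, 39.8, 25.5 and 31.0 CPM at day 1, 23.7, 32.9 and 27.2 CPM at day 2 and 14.4, 16.0 and 14.3 CPM at day 7. Its day 7 libraries lay below all of its day 1 and day 2 libraries, and the difference at day 7 against rest did not pass (log2 -0.49 ± 0.23, adjusted p = 0.615). Adgre1, which encodes the macrophage surface receptor F4/80, ranged over 0.260 to 13.6 CPM in sedentary quadriceps alone, so its course could not be resolved.

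**Figure D2:**
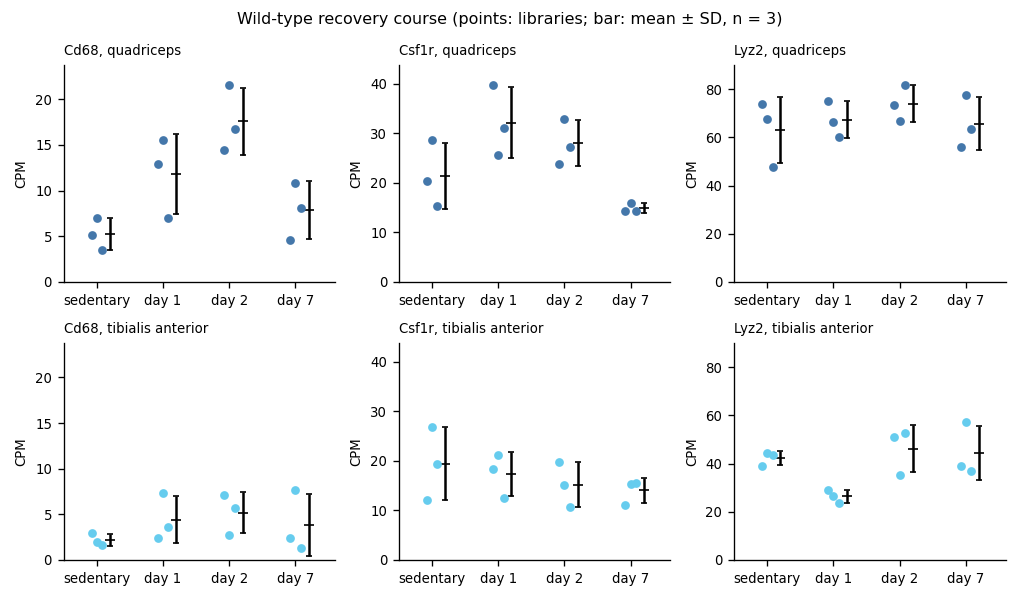
Level in CPM, on axes that start at 0, of Cd68, Csf1r and Lyz2 in wild-type quadriceps (upper row) and tibialis anterior (lower row) at rest and at day 1, 2 and 7 after exercise, with 1 point per library and a bar for the mean ± SD (n = 3). Cd68 in quadriceps is at 14.4 to 21.6 CPM at day 2, above its sedentary libraries, and the group mean of Csf1r there is lowest at day 7.

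In tibialis anterior 0 of the 10 genes were called at any time, where 0.0552% of 12692 genes were called at day 1, 0.063% at day 2 and 0.0158% at day 7, or between day 2 and day 1 (0.0394% of genes) or day 7 and day 2 (0.15%). Lyz2 came nearest at day 1, with 29.1, 26.7 and 23.4 CPM against 39.0, 44.5 and 43.7 CPM at rest (log2 -0.64 ± 0.19, adjusted p = 0.295). The groups did not overlap. Cd68 there had 7.12, 2.7 and 5.68 CPM at day 2, against 2.94, 1.98 and 1.69 CPM at rest (log2 1.26 ± 0.61, adjusted p = 0.673). At rest all 10 genes were higher in quadriceps than in tibialis anterior, with a median log2 difference of 0.71 against 0.01 over all genes, yet 0 passed the test, where 1.3% of 13819 genes did. Lyz2 was at 73.8, 67.8 and 47.6 CPM in sedentary quadriceps, against 39.0, 44.5 and 43.7 CPM in sedentary tibialis anterior (log2 0.57 ± 0.18, adjusted p = 0.152). The test of whether the exercise response differed between the muscles called 0 members at day 1, day 2 and day 7, where it called 0.0434%, 0.00724% and 0.0796% of genes.

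In the acute experiment the sedentary genotypes already differed at C1qa, the A chain of C1q. Sedentary DTR+ muscle had 5.56 and 5.11 CPM, against 25.6, 18.1 and 34.1 CPM in sedentary DTR- muscle. The 2 DTR+ libraries lay below all others of the acute experiment. C1qa fell by a log2 value of -1.97 ± 0.33 (adjusted p = 0.000151). Csf1r fell as well, at 15.3 and 10.8 CPM in DTR+ muscle against 20.6, 30.0 and 35.1 CPM in DTR- muscle (log2 -0.81 ± 0.24, adjusted p = 0.0172). Mrc1, the mannose receptor of resident and repair-phase macrophages, rose, with 23.6 and 20.2 CPM in DTR+ muscle against 11.7, 11.3 and 15.2 CPM in DTR- muscle (log2 1.097 ± 0.310, adjusted p = 0.0122). These 3 calls among 10 genes stand beside 26.7% called of all 14245 genes, a share near that of the members. Once the trend of fold changes on transcript length and GC content was removed, C1qa was the 1 member still called (log2 -1.98, adjusted p = 0.000253), while Csf1r and Mrc1 lost their calls at -0.26 and 0.80. The Csf1r call was also lost without DTR+ replicate 3 or DTR- replicate 3, and the Mrc1 call without DTR+ replicate 2, while C1qa kept its call without any 1 of the 5 libraries. The 7 other members did not pass, and C1qb was at 34.2 and 33.8 CPM in DTR+ muscle, against 33.0, 31.1 and 44.0 CPM in DTR- muscle (log2 0.23 ± 0.22, adjusted p = 0.486). Markers of other cells differed between the same libraries. Satellite cell genes summed to 35.4 to 37.4 CPM in DTR+ against 105 to 126 CPM in DTR- muscle, with 3 of 5 called as lower, and fibre genes to 162037 to 174360 CPM in DTR+ against 190486 to 196238 CPM in DTR- muscle, with 4 of 7 called as higher and Ckm as lower (log2 -1.64 ± 0.14). The fibro-adipogenic gene Pi16 (log2 -2.40 ± 0.52), the endothelial gene Cldn5 (-0.97 ± 0.30) and the immunoglobulin gene Ighm (-0.76 ± 0.23) were lower. Each was the only called gene of its list of cell markers, where 2070 of all 14245 genes were called as lower. The part of other cells in the 3 calls was not tested.

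At day 1 after exercise the genotypes were not told apart at any member. C1qa stood at 13.4, 24.2 and 20.4 CPM in DTR+ muscle, against 21.6, 30.0 and 19.2 CPM in DTR- muscle (log2 -0.27 ± 0.25, adjusted p = 1.0). Lyz2 stood at 84.0, 109 and 110 CPM in DTR+ muscle, against 100, 191 and 154 CPM in DTR- muscle (log2 -0.52 ± 0.23, adjusted p = 1.0). Of the 10 genes, 9 were lower in DTR+ muscle, with a median log2 value of -0.33 against 0.00 over all genes. By edgeR 0.0% of all genes passed the adjusted threshold, 281 had an unadjusted p under 0.05, and DESeq2 called 0.

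At day 7 after exercise most of the 10 genes were higher in DTR+ muscle. Ctss, the lysosomal protease cathepsin S that trims the invariant chain of MHC class II, had 32.3 and 105 CPM in DTR+ muscle, against 21.7 and 12.9 CPM in DTR- muscle. Fcer1g, the signalling gamma chain of Fc receptors, had 23.1 and 59.1 CPM in DTR+ muscle, against 12.3 and 10.5 CPM in DTR- muscle. Lyz2 had 179 and 342 CPM in DTR+ muscle, against 126 and 103 CPM in DTR- muscle. For all 3 genes the groups did not overlap, as for 59.3% of all genes tested with 2 libraries a group, and 1 DTR+ library, replicate 3, was far above the other. The rises were log2 2.30 ± 0.49 for Ctss (adjusted p = 0.00161), 2.14 ± 0.38 for Fcer1g (adjusted p = 0.000307) and 1.48 ± 0.29 for Lyz2 (adjusted p = 0.000828). Without DTR+ replicate 3 these values were 1.20, 1.31 and 0.93, and without DTR+ replicate 2 they were 2.90, 2.65 and 1.85. With the trend of fold changes on transcript length and GC content removed they were 1.44, 1.43 and 0.73, and Lyz2 lost its call (adjusted p = 0.0995).

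C1qb also rose, with 40.8 and 62.6 CPM in day 7 DTR+ muscle against 29.2 and 33.2 CPM in DTR- muscle (log2 1.01 ± 0.25, adjusted p = 0.00484). C1qc rose, with 8.12 and 15.7 CPM against 4.39 and 4.79 CPM (log2 1.65 ± 0.60, adjusted p = 0.0491). C1qa went the other way and fell, with 7.57 and 8.45 CPM in DTR+ muscle against 22.4 and 18.9 CPM in DTR- muscle (log2 -1.08 ± 0.34, adjusted p = 0.0226). Thus 1 chain gene of C1q was lower in the libraries in which the other 2 were higher, and at each of the 3 the groups did not overlap. With 1 library left out, the C1qc rise ran over log2 1.08 to 2.02. By edgeR it lost its call with the library number as a block (log2 1.19, adjusted p = 0.127). It also lost the call with the length and GC trend removed (log2 1.65, adjusted p = 0.062).

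Mrc1 (log2 1.34 ± 0.35, adjusted p = 0.00727) and Cd68 (log2 1.18 ± 0.37, adjusted p = 0.0234) completed the 7 rises. Cd68 overlapped between the groups, with 15.0 and 24.3 CPM in DTR+ muscle against 15.6 and 6.35 CPM in DTR- muscle. Adgre1 was higher without passing (log2 1.49 ± 0.56, adjusted p = 0.0555), and Csf1r stood at 18.2 and 21.6 CPM in DTR+ muscle, against 28.3 and 26.3 CPM in DTR- muscle (log2 -0.17 ± 0.26, adjusted p = 0.684). In this comparison 25.3% of all genes were called, 11.3% as higher and 14.0% as lower, against 7 and 1 of the 10 members. The members' median log2 fold change was 1.41, against -0.10 over all genes. Without DTR+ replicate 3, 2 of the 8 calls were left, Fcer1g and Lyz2. Without DTR- replicate 1 there were 5 and without DTR- replicate 3 there were 4. With the length and GC trend removed, 5 calls were left (C1qa, C1qb, Ctss, Fcer1g and Mrc1). The C1qa call itself was lost without any 1 of the 4 libraries, with adjusted p = 0.0508 to 0.104, at log2 values of -1.18 to -0.99.

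**Figure D3:**
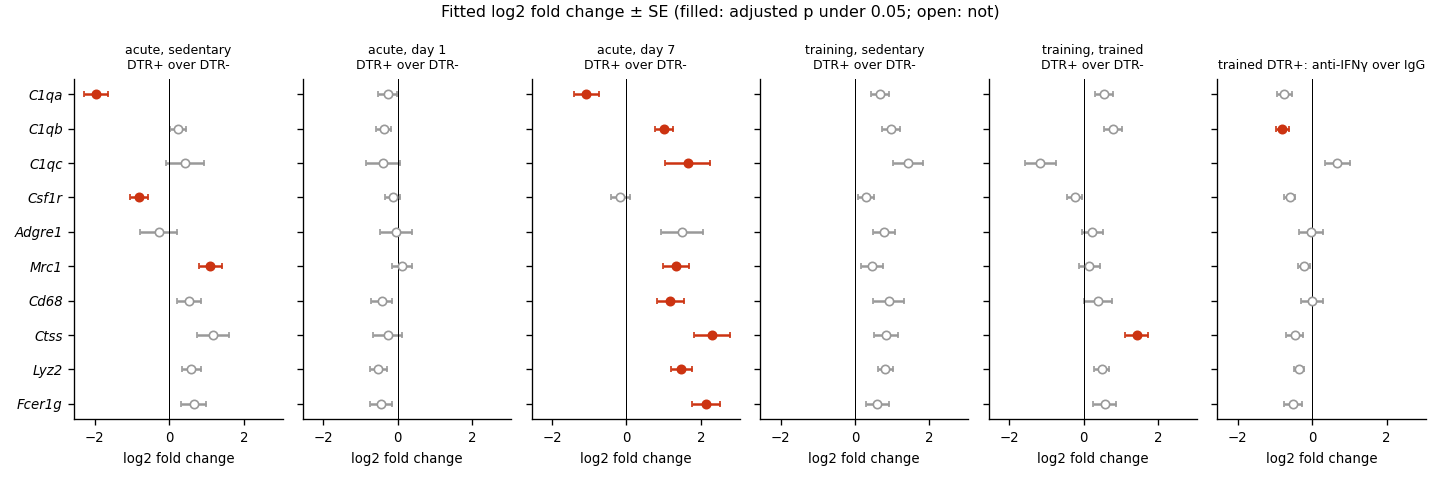
Fitted log2 fold changes of the 10 genes with their standard errors in 6 comparisons, DTR+ over DTR- muscle at rest, day 1 and day 7 of the acute experiment and in sedentary and trained mice of the training experiment, and anti-IFN-gamma over IgG in trained DTR+ mice, filled where the adjusted p was under 0.05. At day 7 in DTR+ against DTR- muscle 7 genes lie above 0 and are called, and C1qa lies below 0.

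The genes beside these in their pathways were read from lists chosen with the members, with earlier results of these data known. Their counts are therefore a description and no independent support for the members. The counts of the lists at day 7 stand beside 11.3% of all genes called as higher and 14.0% as lower, and a median log2 value of -0.10. At day 7, 4 of 6 tested genes of Fc receptors and their adaptors rose in DTR+ muscle and 0 fell, with a median log2 value of 1.97. They were Fcgr3 (log2 1.88 ± 0.36, adjusted p = 0.000573), Fcgr2b (2.06 ± 0.54), Fcgr1 (3.47 ± 1.06) and Fcgr4, which had 133 counts in the DTR+ libraries against 0 in the DTR- ones. These receptors bind IgG, and Fcgr1, Fcgr3 and Fcgr4 signal through the Fcer1g chain. Their sequences are alike, so reads may be shared between them. Of the classical complement partners, 3 of 6 rose and 0 fell, with a median of 1.16. They were C3, the central component cleaved after C1q binds (160 ± 49.4 CPM in DTR+ against 55.1 ± 16.2 CPM in DTR- muscle, log2 1.81 ± 0.27), the C1 protease gene C1s1 (0.89 ± 0.26) and the C1 inhibitor gene Serping1 (0.69 ± 0.18). Among 16 other macrophage genes 6 rose and 0 fell, with a median of 1.14, including Aif1 (log2 3.02 ± 0.67), Cyba, a subunit of the phagocyte oxidase (1.48 ± 0.28), and Cd53 (1.43 ± 0.50). Among 12 lysosomal genes 4 rose and 2 fell, the falls a share near that of all genes, with Lamp1 higher (1.15 ± 0.21) and cathepsin D, Ctsd, lower (-1.15 ± 0.17). Some of these differences were already called between the sedentary genotypes with the same sign. There Fcgr3 had a log2 value of 0.86 ± 0.31, Aif1 of 2.01 ± 0.61 and Ctsd of -1.44 ± 0.16, so they were not particular to day 7.

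The Csf1r ligand Il34 fell at day 7, with 0.436 ± 0.302 CPM in DTR+ muscle against 7.01 ± 1.88 CPM in DTR- muscle (log2 -3.71 ± 0.74, adjusted p = 0.000854). Of 10 genes of tissue-resident macrophages 0 rose and 1 fell, a share near that of all genes, and the 1 was the Mertk ligand gene Gas6 (-1.14 ± 0.21). Markers of other cells moved in the same libraries. The 10 T and NK cell genes summed to 24.5 to 65.1 CPM in day 7 DTR+ muscle, with Klrb1c at 0, against 3.90 to 7.25 CPM in day 7 DTR- muscle, with 6 of the 10 at 0 (Cd3d, Cd8a, Cd4, Trbc2, Gzmb and Klrb1c). The 8 neutrophil genes summed to 4.34 to 10.9 CPM in DTR+ against 8.58 to 103 CPM in DTR- muscle. The 6 B cell genes summed to 86.8 to 100 CPM in DTR+ muscle, with Ms4a1 at 0, against 204 to 256 CPM in DTR- muscle. Haemoglobin and other red blood cell genes moved the same way as the members, with 3 of 5 called as higher and a sum of 187 to 835 CPM in DTR+ against 122 to 300 CPM in DTR- muscle. Of 5 satellite cell genes 2 fell and 0 rose, with a sum of 44.7 to 46.7 CPM in DTR+ against 101 to 107 CPM in DTR- muscle. Of 7 endothelial genes 2 fell and 0 rose (sum 133 to 146 CPM in DTR+ against 182 to 225 CPM in DTR- muscle), and of 7 fibro-adipogenic progenitor genes 2 fell and 0 rose (sum 1222 to 1439 CPM in DTR+ against 1499 to 1766 CPM in DTR- muscle). Of 7 fibre genes 4 rose and 2 fell, with the creatine kinase gene Ckm lower (10610 ± 1201 CPM in DTR+ against 35660 ± 475 CPM in DTR- muscle, log2 -1.46 ± 0.15). The part of these cells, and of the library properties given above, in the day 7 differences was not tested.

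Within DTR+ muscle, day 1 against rest called 6 members: C1qa (log2 1.32 ± 0.32, adjusted p = 0.00245) and Csf1r (1.096 ± 0.242) as higher, and C1qb (-0.69 ± 0.22), Lyz2 (-0.82 ± 0.26), Fcer1g (-1.10 ± 0.33) and Mrc1 (-0.82 ± 0.31) as lower. Here 42.4% of all genes were called, 24.3% as higher and 18.1% as lower, and with the length and GC trend removed C1qa alone was left (log2 1.62) while Lyz2 and Fcer1g turned to 0.29 and 0.06. The median of all genes stood at a log2 value of 0.28 in this comparison. Ckm (log2 1.49 ± 0.14), Cldn5 (1.18 ± 0.30) and 3 of 5 satellite cell genes, among them Cdh15 (2.79 ± 0.36), were called as higher at day 1, the opposite sign to the sedentary DTR+ against DTR- comparison, which shares the sedentary DTR+ libraries. Their part in the members' changes was not tested. In DTR- muscle 0 members were called at day 1, where 16.4% of genes were, or at day 7, where 0.00702% were. Cd68 was again the highest of them at day 1, with 17.1, 22.4 and 25.9 CPM against 9.48, 10.1 and 13.3 CPM at rest (log2 0.74 ± 0.29, adjusted p = 0.0906), and the groups did not overlap. Libraries at day 1 and at rest also differed in genes detected in both genotypes, as given above. In DTR+ muscle at day 7 against rest all 10 genes were higher and 0 were called, where 1.01% of genes were, with Lyz2 nearest (log2 0.95 ± 0.29, adjusted p = 0.12).

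The test of whether the day 1 response differed by genotype called 2 members, where it called 15.4% of all genes. C1qa responded more in DTR+ muscle, by a log2 difference of 1.70 ± 0.41 (adjusted p = 0.00704), and Lyz2 less, by -1.11 ± 0.35 (adjusted p = 0.0361). Lyz2 lost the call with the length and GC trend removed and without any 1 of 7 of the 11 libraries, while C1qa kept it in each of those fits. Both differences rest on the sedentary DTR+ libraries, whose mitochondrial share is given above. At day 7 the same test called 0 members, where 0.0772% of genes were called.

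In the training experiment the 10 genes leaned upward with training in DTR- muscle. All 10 were higher after 2 weeks, with a median log2 fold change of 0.60 against 0.01 over all genes, and at 8 the groups did not overlap, as at 15.7% of all genes tested. None passed, where 0.103% of 12579 genes were called. Trained DTR- libraries had 19057 to 20761 genes detected, against 20843 to 21857 in sedentary DTR- libraries. Mitochondrial counts took 6.27 to 8.93% in trained and 4.98 to 7.15% in sedentary DTR- libraries. The part of these properties in the upward lean was not tested. Cd68 had 15.4, 24.7 and 9.16 CPM in trained DTR- muscle, against 4.49, 6.26 and 3.55 CPM in sedentary DTR- muscle (log2 1.71 ± 0.40, adjusted p = 0.214), and DESeq2 called it. Lyz2 had 136, 155 and 122 CPM in trained against 83.0, 78.1 and 77.0 CPM in sedentary DTR- muscle (log2 0.74 ± 0.20, adjusted p = 0.393). Adgre1 had 10.8, 20.6 and 13.6 CPM in trained against 8.85, 6.63 and 6.77 CPM in sedentary DTR- muscle (log2 0.94 ± 0.29, adjusted p = 0.587).

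In DTR+ muscle training was followed by a fall of C1qc and a rise of Ctss. C1qc, the C chain of C1q, was at 3.70, 7.96 and 14.0 CPM in trained DTR+ muscle, against 19.9, 39.4 and 37.2 CPM in sedentary DTR+ muscle. The groups did not overlap, and C1qc fell by a log2 value of -1.99 ± 0.41 (adjusted p = 0.0117). C1qa did not pass the test, at 23.5, 37.5 and 31.8 CPM in trained DTR+ muscle against 30.1, 34.1 and 30.4 CPM in sedentary DTR+ muscle (log2 -0.09 ± 0.24, adjusted p = 0.92). C1qb was at 48.5, 73.3 and 49.96 CPM in trained against 38.1, 54.1 and 37.8 CPM in sedentary DTR+ muscle (log2 0.33 ± 0.23, adjusted p = 0.59). Ctss rose, with 28.9, 51.5 and 33.9 CPM in trained against 15.3, 20.1 and 11.01 CPM in sedentary DTR+ muscle (log2 1.21 ± 0.31, adjusted p = 0.0439). The background was 2.21% of genes called, 0.978% as higher and 1.23% as lower. Both calls were lost when these groups were fitted alone, and without trained DTR+ replicate 1 or 2. The Ctss call was also lost without sedentary DTR+ replicate 1 or 3, and Cd68 and Lyz2 joined the calls without replicate 2. That sedentary DTR+ replicate 2 stood apart from its group, with 17342 genes detected and 8.01% mitochondrial counts, against 21186 to 22079 genes and 5.15 to 5.21% in the other 2. Without it C1qc had a log2 value of -1.69 (adjusted p = 0.0209) and Ctss of 1.56 (adjusted p = 0.00631).

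Between genotypes, trained DTR+ muscle differed from trained DTR- muscle at Ctss, with 28.9, 51.5 and 33.9 CPM against 12.8, 17.1 and 14.4 CPM (log2 1.43 ± 0.31, adjusted p = 0.026), where 0.89% of genes were called. The groups did not overlap, and the call was lost without any 1 of the trained DTR- libraries or without trained DTR+ replicate 2. C1qb was at 48.5, 73.3 and 49.96 CPM in trained DTR+ against 35.3, 36.0 and 31.7 CPM in trained DTR- muscle (log2 0.80 ± 0.24, adjusted p = 0.179). In sedentary mice all 10 genes were higher in DTR+ muscle, with a median log2 value of 0.79 against 0.04 over all genes, and 0 were called, where 0.0477% of genes were. C1qc was at 19.9, 39.4 and 37.2 CPM in sedentary DTR+ against 16.4, 10.1 and 10.7 CPM in sedentary DTR- muscle (log2 1.43 ± 0.40, adjusted p = 0.459). C1qa was at 30.1 to 34.1 CPM in sedentary DTR+ against 15.1 to 25.2 CPM in sedentary DTR- muscle, without overlap. For C1qa and Csf1r this was the opposite sign to the sedentary genotypes of the acute experiment, where both were called as lower in DTR+ muscle. The test of whether training acted differently by genotype called 0 members, where 0.27% of genes were called, with C1qc nearest (log2 -2.59 ± 0.57, adjusted p = 0.0604).

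Among the lists, Lamp1, a membrane protein of lysosomes, fell in trained DTR+ muscle, which had 147 ± 58.2 CPM (n = 3). Sedentary DTR+ muscle had 387 ± 35.3 CPM (log2 -1.46 ± 0.25, adjusted p = 0.00376) and trained DTR- muscle 375 ± 142 CPM (log2 -1.30 ± 0.25, adjusted p = 0.0105). It was the 1 called gene of 12 lysosomal genes in both comparisons. The T and NK cell genes summed to 8.91 to 15.6 CPM in trained DTR+ muscle, against 3.62 to 7.85 CPM in trained DTR- and 2.38 to 5.66 CPM in sedentary DTR+ muscle, without overlap. The B cell genes summed to 58.5 to 79.2 CPM in trained DTR+ muscle, against 113 to 141 CPM in trained DTR- and 109 to 169 CPM in sedentary DTR+ muscle. Mitochondrial counts took 7.48 to 8.93% in trained DTR+, 6.27 to 8.93% in trained DTR- and 5.15 to 8.01% in sedentary DTR+ libraries. The part of these in the Ctss and C1qc results was not tested.

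Neutralising IFN-gamma in trained DTR+ mice was followed by a fall of C1qb. It had 26.4, 42.9 and 25.7 CPM with anti-IFN-gamma, against 58.2, 56.5 and 50.2 CPM with IgG, without overlap (log2 -0.80 ± 0.18, adjusted p = 0.0402). Of the 10 genes 9 were lower with the antibody, with a median log2 value of -0.41 against 0.00 over all genes, and 1 was called, where 1.35% of 11742 genes were called. C1qa had 23.9, 28.5 and 14.6 CPM with anti-IFN-gamma, against 42.8, 33.1 and 36.3 CPM with IgG (log2 -0.75 ± 0.21, adjusted p = 0.118). Csf1r had 31.6, 31.5 and 25.6 CPM with anti-IFN-gamma, against 46.3, 48.0 and 39.9 CPM with IgG (log2 -0.60 ± 0.14, adjusted p = 0.055). For C1qa, C1qb, Csf1r and Lyz2 the groups did not overlap, as for 15.2% of all genes tested.

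C1qc was the 1 gene that was higher with anti-IFN-gamma, at 19.3, 10.6 and 8.47 CPM against 5.00, 8.99 and 10.0 CPM with IgG (log2 0.68 ± 0.32, adjusted p = 0.508). Ctss had 20.2, 26.0 and 13.2 CPM with anti-IFN-gamma against 33.5, 21.04 and 26.8 CPM with IgG (log2 -0.46 ± 0.23, adjusted p = 0.531). Lamp1 rose to 248 ± 38.7 CPM with anti-IFN-gamma, against 134 ± 49.7 CPM with IgG (log2 0.88 ± 0.19, adjusted p = 0.0322), the 1 called gene of 12 lysosomal genes. The T and NK cell genes summed to 4.70 to 7.11 CPM with anti-IFN-gamma against 5.92 to 13.9 CPM with IgG. The C1qb call was lost without any 1 of 4 of the 6 libraries, and with the library number as a block. Anti-IFN-gamma libraries held 5903939 to 6388765 counts and 20545 to 21830 genes detected. IgG libraries held 4562680 to 5396019 counts and 19464 to 20005 genes detected. Treatment and these library properties cannot be told apart here.

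In sedentary mice of 24 months 0 of the 10 genes and 0.0% of 12531 genes were called with anti-IFN-gamma against IgG by edgeR, with 64 genes at an unadjusted p under 0.05 and 0 called by DESeq2. In both groups the 2 libraries disagreed with each other. C1qb had 59.6 and 9.36 CPM with anti-IFN-gamma, against 34.9 and 64.4 CPM with IgG. Csf1r had 22.2 and 78.6 CPM with anti-IFN-gamma, against 35.7 and 27.1 CPM with IgG. The library with low C1qb and high Csf1r had 1.05 CPM of Fcer1g, against 19.2 CPM in the other. Mitochondrial counts took 3.25% in it and 14.0% in the other anti-IFN-gamma library.

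The proportions of the 3 C1q transcripts to each other carried the unequal changes in 1 measure. As a share of C1qa, C1qb and C1qc counts together, C1qa took 9.73 to 42.8% over the 61 libraries with a median of 31.5%, C1qb 24.7 to 73.4% with a median of 47.9%, and C1qc 4.72 to 42.9% with a median of 19.9%. C1qa took 11.2 and 11.1% in sedentary DTR+ and 13.4 and 9.73% in day 7 DTR+ muscle of the acute experiment. The corresponding DTR- values were 41.3, 32.0 and 37.5% at rest and 40.0 and 33.3% at day 7. At day 1 the share was 32.0, 36.4 and 32.4% in DTR+ and 32.3, 34.2 and 28.8% in DTR- muscle. Thus the 4 libraries with low C1qa shares were the same 4 that stood apart in mitochondrial counts.

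The C1qc share was low in other libraries too. It was 4.88, 6.70 and 14.6% in trained DTR+ and 4.72, 9.11 and 10.4% in trained DTR+ muscle with IgG. Against these stood 22.6, 30.9 and 35.3% in sedentary DTR+ and 29.2, 30.2 and 16.7% in trained DTR- muscle of the same experiment. Shares as low stood in the acute experiment, at 9.18 to 15.9% in DTR+ muscle at day 1, 5.45 to 14.1% in sedentary DTR- muscle and 7.84 and 8.42% in DTR- muscle at day 7, so a low C1qc share did not mark trained DTR+ muscle alone. With anti-IFN-gamma the C1qc share was 27.8, 13.0 and 17.4%, above all 3 IgG libraries. A ratio within 1 library shows unequal change of the chains, not which of them changed.

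**Figure D4:**
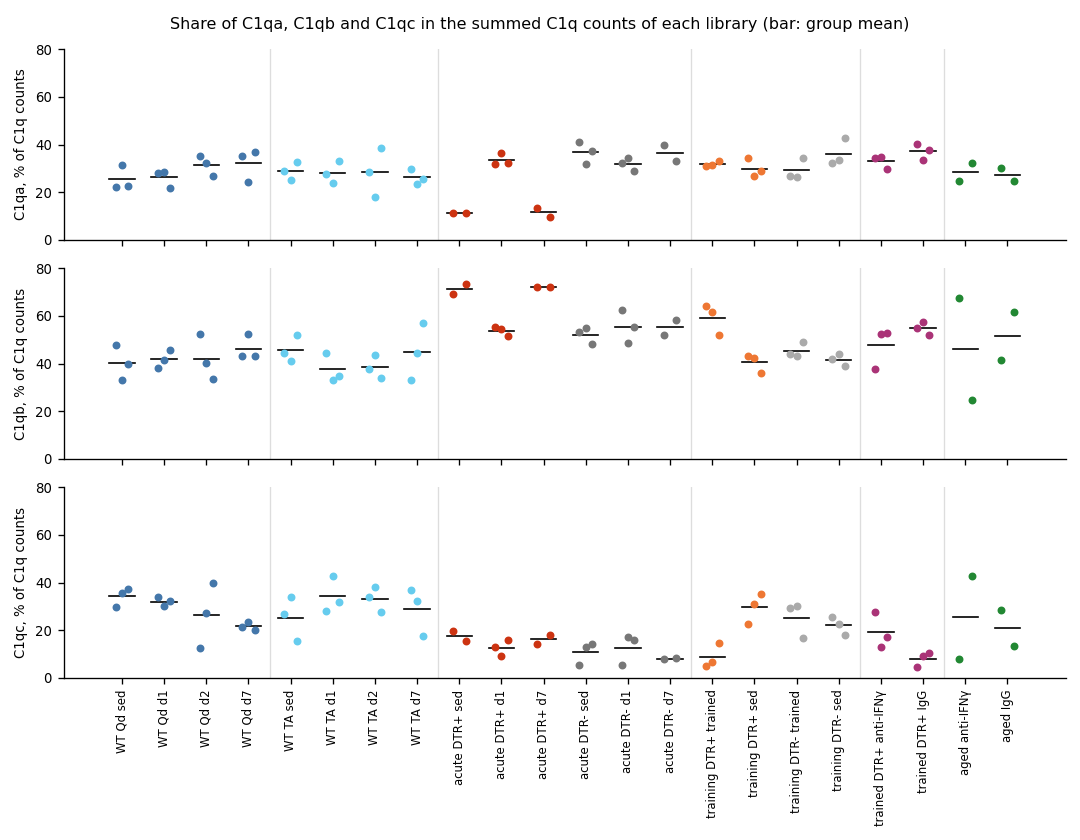
Share of C1qa, C1qb and C1qc in their summed counts, in percent, with 1 point per library for all 22 groups. The C1qa share is 9.73 to 13.4% in sedentary and day 7 DTR+ muscle of the acute experiment, and the C1qc share is 4.72 to 14.6% in trained DTR+ muscle without antibody or with IgG, a range that also holds the sedentary and day 7 DTR- groups of the acute experiment.

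Across the 22 group means, which share experiments and library depth, C1qb ran closely with Lyz2 (Spearman rho 0.96) and Fcer1g (0.94), less so with C1qa (0.70), and hardly with C1qc (0.22). C1qa and C1qc had a rho of 0.20. Among 11069 genes with a mean of at least 2 CPM, those with the highest rho to C1qb were Fcgr2b (0.95), Alox5ap (0.93) and Tyrobp (0.92), and those to Lyz2 were Fcgr2b (0.96), Tyrobp (0.95) and Rac2 (0.92). Ctss ran with Gnmt (0.93), Ifit3 (0.93) and Psmb8 (0.93), and Fcer1g with Ccl6 (0.95), Cyba (0.94) and Ube2l6 (0.93). Adgre1 ran with C1ra (0.95), C1s1 (0.94) and Cybb (0.88), and Mrc1 with F630028O10Rik (0.88) and C3ar1 (0.86). C1qa ran with Unc93b1 (0.92), Slfn2 (0.91) and Ptafr (0.89), and Csf1r with Tmbim1 (0.87), Acly (0.84) and Laptm5 (0.84). The likeness was lower for Cd68, with 1810058I24Rik (0.84), Cd53 (0.83) and Ccl9 (0.81), and for C1qc, with Lysmd2 (0.80), Micu2 (0.78) and Rsf1 (0.76).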

How the data were processed

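RNA was taken up in TRIzol from whole frozen muscle, and 2 ng of it went into an ultra-low-input library protocol, per the labels' protocols. The values used are raw gene counts deposited by the authors, 1 table for 61 libraries. Reads were aligned to mm10 with STAR 2.7.3a and counted with featureCounts, per the submitters' processing notes. Which annotation was used, whether strand was used and how reads that match several genes were handled is not given in the sources used here. Libraries held 3359683 to 14445336 counts, and no column was left out.

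The experiments were fitted separately. Genes passed filterByExpr (count minimum 10, total minimum 15), TMM factors scaled the libraries, and edgeR 4.0.16 ran under R 4.3.3 with limma 3.58.1. Quasi-likelihood F tests were made for 24 comparisons of group pairs and 6 tests of a difference between responses. Called means a p-value under 0.05 after Benjamini-Hochberg adjustment over all genes tested. Standard errors were derived by dividing the size of each log2 fold change by the root of its F statistic. Levels are CPM, counts scaled to the library total without TMM factors, so a ratio of levels can differ from the fitted fold change. The steps were tested on simulated data.

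The members and lists were chosen with earlier results of these data known. Outside the members, the rule names the 3 genes with the highest Spearman rho to each member over group means and up to 4 called genes of a list, by smallest p, in comparisons where a member was called. The choice of which of these to describe was made after their values were seen. Some genes that the rule or the lists name are not reported here. Alternatives were DESeq2 1.42.0, RLE scaling, no filter, a fit of the compared groups alone, leaving out each library, the library number as a block, and removal of each library's trend on transcript length and GC content. Length and GC values were at hand for 98.6 to 98.9% of tested genes. Quadriceps and tibialis anterior with the same number are taken to come from the same wild-type animal. The deviations of these 12 pairs from their group means correlated at r = -0.032 to 0.053, and the animal block changed no call of a member in the muscle comparisons.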

Additional observations from a re-analysis of the deposited data

Results flagged for a closer look

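The response of C1qa to exercise at day 1 differed between genotypes, by a test of the difference itself. Against rest its log2 fold change was 1.32 ± 0.32 in DTR+ muscle and -0.38 ± 0.25 in DTR- muscle, a difference of 1.70 ± 0.41 (edgeR, adjusted p = 0.00704). C1qa was at 13.4, 24.2 and 20.4 CPM at day 1 and at 5.56 and 5.11 CPM at rest in DTR+ muscle, so its DTR+ libraries at rest lay below all of those at day 1.

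The response of Lyz2 at day 1 passed the same test less firmly. Its log2 fold change was -0.82 ± 0.26 in DTR+ muscle and 0.29 ± 0.23 in DTR- muscle, a difference of -1.11 ± 0.35 (edgeR, adjusted p = 0.0361). With the length and GC trend removed the difference was -0.39 (adjusted p = 0.562) and the DTR+ response 0.29, and the call was also lost with the replicate block (adjusted p = 0.0549) and without any 1 of 7 of the 11 libraries. The test called 15.4% of all genes. The sedentary DTR+ libraries that both differences use had 21.4 to 23.5% mitochondrial counts, against 7.9 to 12% in sedentary DTR- libraries, and genotype and library properties cannot be told apart there.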

How the results depend on the processing

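Of 394 counts of called members recomputed, 317 stayed within 1.5 times the main count. Counts of 0 that stayed at 0 are among these, and most comparisons had a main count of 0. The 317 therefore say little of how stable the calls were. Of 592 recomputed log2 fold changes of called or once called members 8 changed sign. A further 84 lost a call held in the main fit, and 54 gained a call absent from it. Of 1113 recomputed counts of called genes in the lists 913 stayed within 1.5 times, again with unchanged counts of 0 among them. None of these list counts came from a fit with a library left out. Day 1 libraries of the acute experiment, refitted without the 4 DTR+ libraries that stand apart (chosen after seeing the data), again gave 0 calls between genotypes. The few libraries per group limit precision, and Adgre1 was as low as 0.247 CPM in a library. The cause of the changes below was not tested.

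With DESeq2 1 member was called at day 7 against day 2 in quadriceps (Csf1r), at day 2 against day 1 in tibialis anterior (Lyz2), at day 7 in DTR+ muscle against rest (Lyz2), with training in DTR- muscle (Cd68) and for the difference in training response (C1qc), and 2 for the antibody (C1qb and Csf1r). Without a filter on low counts 1 was called in each of these except 2 in DTR+ muscle at day 7 against rest and 3 for the antibody, and 1 in quadriceps at day 1 (Cd68), 2 between the muscles at rest, 5 between sedentary acute genotypes, 1 between sedentary training genotypes and 2 between trained genotypes.

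In fits of the compared groups alone 1 was called between the muscles at rest, 1 at day 1 in DTR- muscle, 4 for the genotype difference at day 1, 1 with training in DTR- muscle and 0 with training in DTR+ muscle. With the length and GC trend removed 1 was called between sedentary acute genotypes, 5 at day 7 between genotypes, 1 at day 1 in DTR- and in DTR+ muscle, 1 for the genotype difference at day 1, 1 with training in DTR- muscle and 2 between trained genotypes. The log2 value of Lyz2 became -0.089 between sedentary genotypes and 0.29 at day 1 in DTR+ muscle, where Ctss became 0.18 and Fcer1g 0.057. With the replicate number as a block as well, these 4 values were -0.17, 0.40, 0.30 and 0.18, and the calls numbered 1, 3, 1, 1, 1 and 1 in the first 6 of these comparisons, in that order, and 0 for the antibody.

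Same-numbered libraries did not deviate together (r = -0.093 to 0.036 in the acute, -0.156 to 0.101 in the training and -0.047 to 0.013 in the antibody experiment). The replicate block alone gave 1 call for the genotype difference at day 1, 1 with training in DTR- muscle and 0 for the antibody. In the aged experiment (r = -0.653) the crossed pairing, added after seeing the data, called 0 members, as did the block with the deposited numbers.

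Leaving out 1 library at a time gave 0 calls in quadriceps at day 2, 2 to 3 between sedentary acute genotypes, 2 to 8 at day 7 between genotypes, 2 to 6 at day 1 and 0 to 3 at day 7 in DTR+ muscle, 1 to 2 for the genotype difference at day 1 and 0 to 1 at day 7, 0 to 4 with training in DTR+ muscle, 0 to 1 between trained genotypes, 0 to 1 for the difference in training response and 0 to 2 for the antibody.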
